A study of Mus musculus with 21 samples.

Results

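Part 1 is the first by number of 7 pieces into which the presomitic mesoderm (PSM) of mouse embryos was cut, and its expression was set against that of the other 6 pieces, with an eye to genes found at their highest or their lowest in part 1. The array titles assign 3 arrays to part 1, of 21 in the series, and the other 18 arrays are 3 for each of parts 2 to 7. All embryos were CD-1, an outbred mouse stock, without any treatment that differed between the parts. The stage label reads E8.5, whereas the protocol gives 9.0 days post-coitus for the dissection. Every embryo was exposed to pancreatin (2 mg/ml for 1 min), its PSM was freed from the tissue around it with needles, and the pieces went into Trizol. RNA passed through 2 rounds of amplification before labelling and hybridisation. The labels describe a landscape from tailbud to somite but do not say at which end part 1 lies, so it is called by its number. According to the design text, one embryo gave left and right PSM and another embryo gave the other set, so that arrays share embryos in a way the replicate numbers do not show. The p-values therefore measure only the spread between these arrays.

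The PSM lies on both sides of the neural tube and is fed with new cells by progenitors in the tailbud. Wnt and FGF ligands made at the tail end keep its cells immature, whereas retinoic acid made by somites and the mesoderm near them spreads from the other end, and enzymes of the Cyp26 family break it down. Where the opposing signals balance, forkhead, Mesp and Notch pathway genes lay out the next somite.

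The mean signal per array was between 151 and 154 in all 21 arrays, and the median was between 12.9 and 13.7. Values were analysed as log2(signal + 16), a scale on which a signal of 0 reads 4 and changes of weak genes are understated. A probe set stood for each of 12141 genes tested. Markers of unsegmented paraxial mesoderm were present in part 1. Tbx6, a T-box factor of that tissue, had signals of 601, 526 and 475 in replicates 1, 2 and 3, and Hes7, an oscillating repressor of the segmentation clock, had 357, 456 and 754. The array ratio of 3' to 5' actin signal, a sign of RNA quality, was 2.63, 3.76 and 2.35 (log2) in part 1 and between 3.01 and 4.39 elsewhere. Replicates 1 and 3 of part 1 lay below every other array in that ratio. For Gapdh the ratio was 2.84, 3.64 and 2.21 against 2.80 to 4.11, so that only replicate 3 lay below every other array. The part of RNA quality in the results was not tested.

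Compared with the average of the 6 other part means, 889 genes were higher in part 1 (7.32% of those tested, limma, adjusted p under 0.05) and 605 were lower (4.98%). Of the higher genes 241 differed by more than 1 log2 unit and 40 by more than 2, against 140 and 43 of the lower genes. Part 1 had the highest mean of all 7 parts for 821 of the 889, and the lowest for 547 of the 605. The next part in order was part 2 for 578 of the higher and 318 of the lower genes. These genes were picked by the same part 1 values, so an extreme mean in part 1 is in part a result of that choice. No share over all genes is given for these counts. The part 1 arrays stood wholly above the other 18 for 247 of the 889 genes and wholly below them for 162 of the 605. Such a separation was seen in 2.17% of all genes tested for the upper side and 1.44% for the lower side. The share of calls that were higher in part 1 was 59.5%, but it moved with the scaling: it was 36.5% when each array was centred on its median, which moved the median difference of all genes from 0.01 to -0.07, and 51.0% after quantile normalization. In bulk tissue, fewer cells of a type and less RNA per cell cannot be told apart.

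A stricter comparison asked whether part 1 stood above or below each single other part. By the largest of the 6 p-values against the other parts, 21 genes were highest in part 1 (0.173% of genes tested) and 18 were lowest (0.148%). The 3 part 1 arrays did not overlap the other 18 for any of these 39 genes, which were picked with the same values. The gap between part 1 and the nearest other part exceeded 1 log2 unit for 14 of the 21 and 13 of the 18, and the nearest part was part 2 for 18 and 16 of them. A separate F test asked whether parts 2 to 7 differed among themselves, which it found for 8.51% of all genes tested. Of the 21 genes highest in part 1, 13 did not pass that test, and of the 18 lowest, 6 did not. Not passing does not show that the means were level. Cyp26a1 was among the 13, although its means in parts 2 to 7 spanned 2.55 log2 units. Near the threshold, Sim1, Foxc1 and Fhl1 were just inside (adjusted p between 0.0484 and 0.0491), while Scara5 (gap 2.47, adjusted p = 0.0503), Grik3 (0.0515) and Vwa2 (0.0568) were just outside.

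**Figure D1:**
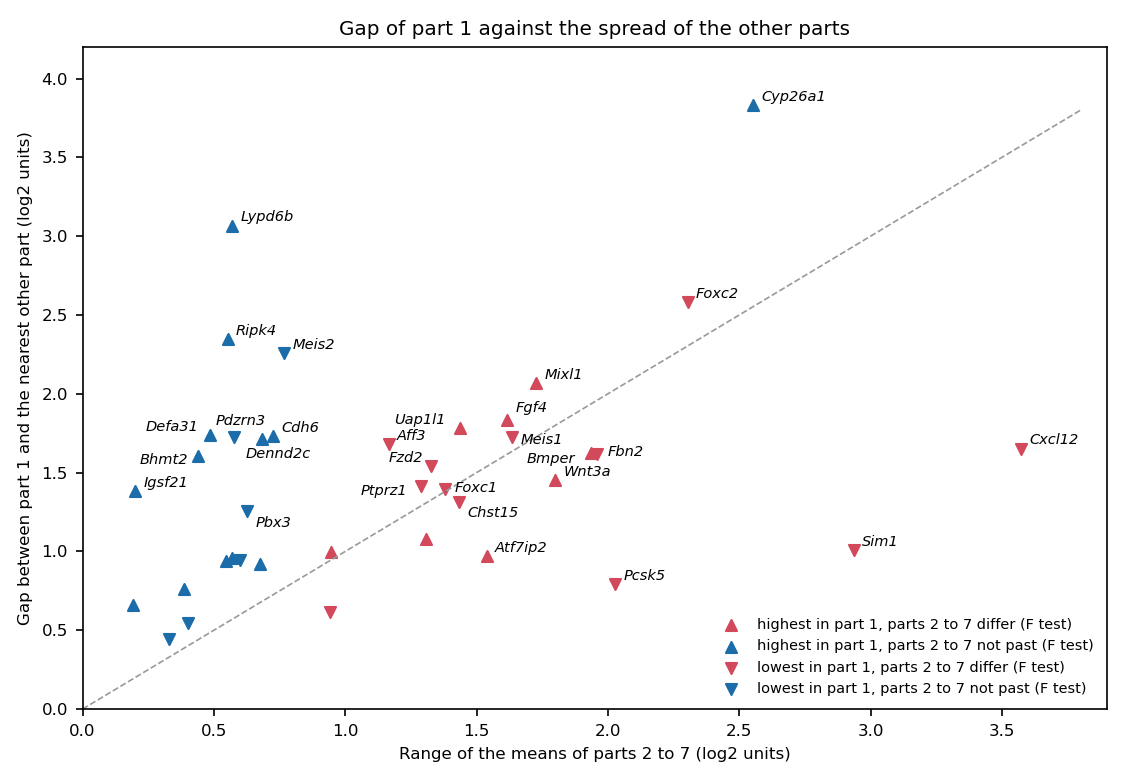
Gap between part 1 and the nearest other part (log2 units, vertical axis) against the range of the means of parts 2 to 7 (log2 units, horizontal axis) for the 21 genes highest (upward triangles) and the 18 lowest (downward triangles) in part 1, with the colour showing whether parts 2 to 7 passed the F test and a dashed line where both are equal. Lypd6b, Ripk4 and Meis2 lie far above the line, with parts 2 to 7 alike in level, and Cxcl12 and Sim1 lie below it. For Lypd6b and Ripk4 the signals in parts 2 to 7 are weak, and the scale understates their differences.

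Genes highest in part 1 were led by Cyp26a1, the cytochrome P450 that degrades retinoic acid in the tailbud. Its signals in replicates 1, 2 and 3 of part 1 were 519.8, 2479 and 3042, against a lowest of 1.25, a median of 19.4 and a highest of 181 in the other 18 arrays. All part 1 arrays were above all others, although replicate 1 was well below replicates 2 and 3. The array at 181 was replicate 2 of part 5, against 1.2 and 21.7 in replicates 1 and 3 of that part. That array was also above them for Cdx2 (81 against 8.1 and 7.3), Cdx4 (96.1 against 10.4 and 16.8) and Nkx1-2 (192 against 8.7 and 10.4). It was not for Mixl1 (8.6 against 2 and 15.4) or Fgf4 (1.2 against 1.4 and 0.8). The part of this array in the results was not tested. The gap of Cyp26a1 to part 2, the nearest, was 3.83 ± 0.64 (SE) log2 units, or 14.2-fold on this scale (adjusted p = 0.00826). Against the mean of parts 2 to 7 the difference was 5.29 ± 0.49 (SE), the largest upward difference of any gene tested. The gap stayed between 3.36 and 4.62 when arrays were left out, but the call was lost in 4 of 6 such fits, with an adjusted p as high as 0.237 in the fit without replicate 3.

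The promoter of Cyp26a1 is shown with those of 3 other genes because it is a well-known target of retinoic acid receptors and the pathway's genes stood on both sides of the comparison. The window runs from 250 bases before to 50 after the annotated start (RefSeq, GRCm38.p6), and capitals mark the retinoic acid receptor hexamers AGTTCA and GGTTCA and the TCF and LEF core CTTTGA, each searched on both strands, so that a match on the opposite strand is printed as its reverse complement. The first lies at chr19:37697558-37697857 (plus strand), the second at chr9:23222826-23223125 (plus), the third at chr13:31806396-31806695 (plus) and the last at chr2:116064570-116064869 (minus).
Cyp26a1: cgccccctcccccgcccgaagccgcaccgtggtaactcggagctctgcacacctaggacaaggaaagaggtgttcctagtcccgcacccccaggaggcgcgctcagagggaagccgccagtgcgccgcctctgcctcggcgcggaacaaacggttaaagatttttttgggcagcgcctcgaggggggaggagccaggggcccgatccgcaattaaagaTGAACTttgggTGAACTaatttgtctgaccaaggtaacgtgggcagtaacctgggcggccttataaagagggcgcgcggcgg
Bmper: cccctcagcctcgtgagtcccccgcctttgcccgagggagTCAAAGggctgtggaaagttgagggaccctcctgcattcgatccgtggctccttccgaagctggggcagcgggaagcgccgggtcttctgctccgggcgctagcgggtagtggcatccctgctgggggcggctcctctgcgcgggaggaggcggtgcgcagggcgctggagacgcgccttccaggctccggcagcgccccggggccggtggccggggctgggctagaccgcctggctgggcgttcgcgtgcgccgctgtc
Foxc1: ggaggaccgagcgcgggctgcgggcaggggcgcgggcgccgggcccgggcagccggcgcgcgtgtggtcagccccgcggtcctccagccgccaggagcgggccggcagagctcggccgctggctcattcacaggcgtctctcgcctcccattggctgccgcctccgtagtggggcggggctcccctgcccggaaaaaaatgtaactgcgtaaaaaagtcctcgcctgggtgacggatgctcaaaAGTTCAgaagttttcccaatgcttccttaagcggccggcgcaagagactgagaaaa
Meis2: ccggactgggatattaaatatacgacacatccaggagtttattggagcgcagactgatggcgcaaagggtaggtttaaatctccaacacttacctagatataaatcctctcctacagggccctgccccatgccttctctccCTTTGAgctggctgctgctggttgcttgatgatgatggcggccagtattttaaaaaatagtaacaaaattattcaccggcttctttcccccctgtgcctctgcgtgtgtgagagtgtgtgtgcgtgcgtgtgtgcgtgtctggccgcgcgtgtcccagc

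The Cyp26a1 window held 2 receptor hexamers in the same orientation with 5 bases between them, 32 and 21 bases before the start. Only 4 of 9839 promoters of tested genes held such a pair (0.0407%), and Cyp26a1 was the 1 gene with it among the 27 of the 39 that had a promoter entry (14 of the 21 highest and 13 of the 18 lowest). Single hexamers were commoner, in 16.9% of the 9839 promoters, and stood in 2 of 14 promoters of the highest genes (Cyp26a1 and Fbxl14) and 2 of 13 of the lowest (Foxc1 and Sim1). The TCF and LEF core occurred in 11.7% of all promoters, in 3 of 14 (Bmper, Cdc42ep5 and Defa31) and in 2 of 13 (Cxcl12 and Meis2). The CDX site TTTATG (6.3% of promoters), the T-box site TCACAC (10.6%), the MEIS site TGACAG (16.7%) and the TATA box TATAAA (6.9%), also searched on both strands, were found in 0, 2, 3 and 3 of 14 and in 1, 2, 0 and 4 of 13. Matches of different motifs in these promoters did not overlap. Letters that match are a description of the window and not a site of binding.

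Lypd6b, which encodes a membrane-anchored protein of the Ly6 family, had the next largest gap. Part 1 signals were 53.4, 513 and 454, and the other arrays reached 34.5 at most (replicate 2 of part 5) with a median of 7.54. Every part 1 array was above all others, but replicate 1 only narrowly. The gap was 3.07 ± 0.51 (SE) log2 units (adjusted p = 0.00785), and the means of parts 2 to 7 spanned no more than 0.57. Ripk4, a kinase known for its part in epidermal differentiation, gave 66.8, 313 and 292 in part 1 and between 6.03 and 36.9 in the other arrays. Its gap was 2.35 ± 0.40 (SE; adjusted p = 0.00928), and the means of parts 2 to 7 spanned 0.55. Signals of both genes in those parts were weak, and this scale understates differences among weak signals. For both genes the calls were lost when replicate 2 or 3 was left out, in part 1 alone or in every part. The gaps then stayed at or above 2.33 and 2.00, with adjusted p-values up to 0.378 and 0.495.

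The mean levels of the surface ectoderm and gut endoderm marker lists were lowest in replicate 1 among the part 1 arrays, though not every member followed. Cdh1, the epithelial cadherin, read 3.1, 52.4 and 60.1 in part 1 and 26.8 at most elsewhere (difference 0.98 ± 0.32, adjusted p = 0.0538). The mean level of 6 surface ectoderm genes was 4.71, 5.26 and 5.17 (log2) in the 3 arrays and between 4.5 and 5.00 in the others. Of those 6, Wnt6 was higher in part 1, a call lost in 5 of 6 fits that left out arrays (adjusted p up to 0.343 without replicate 2) and with median centring or quantile normalization. Tfap2a, of the same list, read 12.5, 14.7 and 8 in part 1, lowest in replicate 3, and up to 19.9 elsewhere. Grhl3 read 10.6, 20.8 and 20.8 in part 1 and up to 26.1 elsewhere. In that list Krt14, Trp63, Tfap2c, Dlx5 and Esrp1 were below the filter on weak signals. For 12 gut endoderm genes the mean was 5.08, 5.32 and 6.56 against 4.5 to 6.17, and 4 of them were higher in part 1 (Apela, Krt8, Cpm and Cldn6), with Foxa2, Cldn7 and Trh below the filter. Over all genes tested 7.32% were higher in part 1, the share to set beside the counts of both lists. When arrays were left out the call of Krt8 was lost in 3 of 6 fits (adjusted p up to 0.150) and that of Cldn6 in 2 (up to 0.191). Afp, a yolk sac and liver secretory protein, read 1.97, 0.15 and 1680 in part 1 and up to 2156 in the other arrays, so that high signals of this gene were not found in part 1 alone. The part of these cells in the results was not tested.

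Mixl1 and Fgf4 were highest in part 1 with a graded fall through the next parts. Mixl1, a homeobox gene of the primitive streak and its mesendoderm, gave 152, 381 and 338 in part 1 and at most 98.2 elsewhere. Its part means ran from 8.16 ± 0.67 in part 1 to 6.10 ± 0.70 in part 2 and 4.37 ± 0.40 in part 7 (log2, SD, n = 3), and the gap was 2.07 ± 0.36 (SE; adjusted p = 0.0102). Fgf4, an FGF ligand of the tail end, gave 85.9, 218 and 248, with a median of 1.35 and a highest of 42.8 in the other arrays. The gap of 1.83 ± 0.24 (SE; adjusted p = 0.000898) separated it from part 2 at 5.70 ± 0.30, and from part 4 on the gene was at the floor of the scale (means between 4.08 and 4.1). Both genes differed among parts 2 to 7 (F test, adjusted p = 0.0106 and 0.000126). The call of Mixl1 was lost in 5 of 6 fits that left out arrays (adjusted p up to 0.367 without replicate 3), and that of Fgf4 in 2 (up to 0.210 without replicate 2). Of the other probe sets of Fgf4, the nearest to 0 differed by only 0.11.

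**Figure D2:**
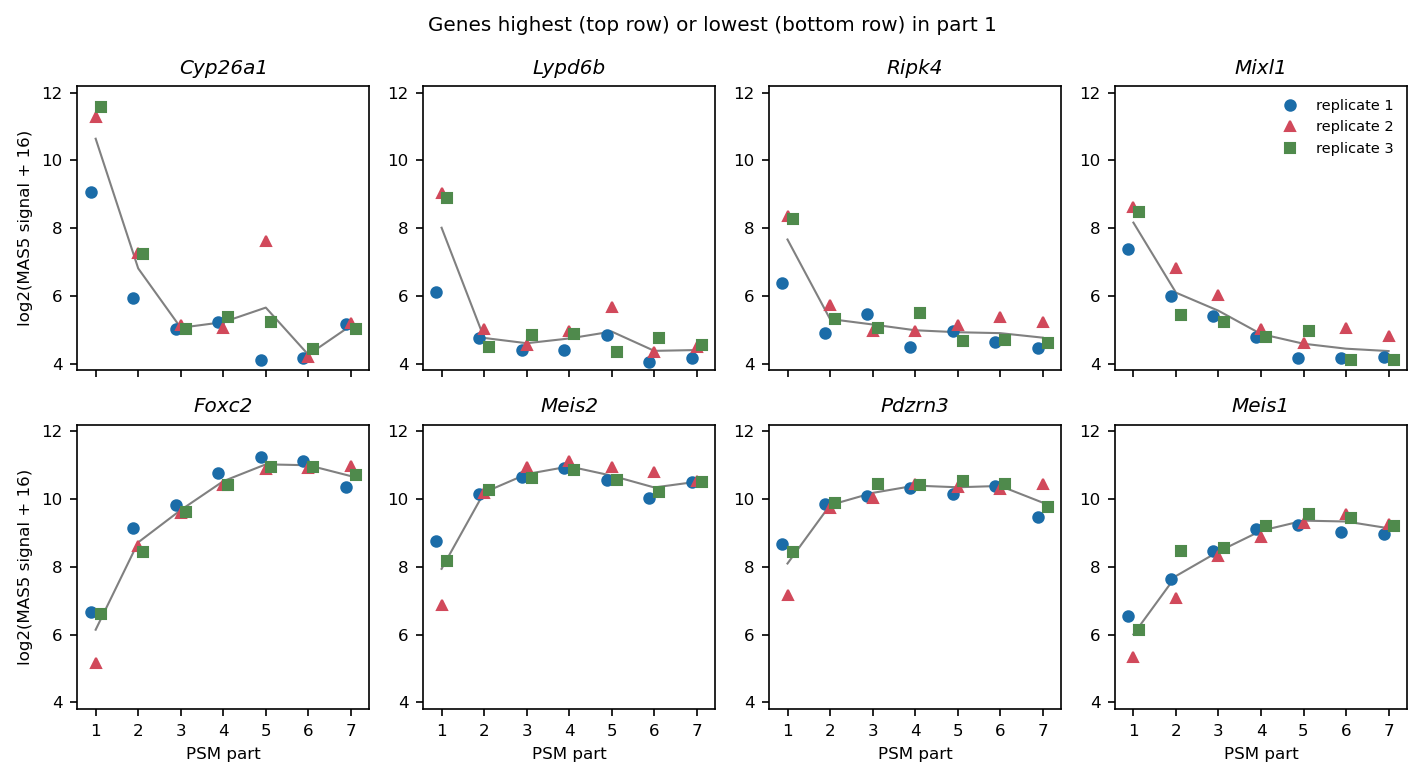
Log2(MAS5 signal + 16) against the PSM part number for the 4 genes with the largest gaps in each direction, in each of the 21 arrays, where symbols mark the replicate and the grey line joins the means of the parts. In the top row (highest in part 1) replicate 1 of part 1 lies nearest to the other parts, and in the bottom row (lowest in part 1) replicate 2 lies farthest below them.

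Other secreted signals and their modulators were also highest in part 1. Wnt3a, the ligand that maintains caudal progenitors, had signals of 164, 269.5 and 173 in part 1 and a highest of 98.8 elsewhere. The gap to part 2 was 1.45 ± 0.25 (SE; adjusted p = 0.00949). Bmper, which binds and modulates BMP ligands, gave 144, 313 and 186 with a highest of 59.5 among the other arrays. It was separated by 1.63 ± 0.28 (SE; adjusted p = 0.00949) from part 2, and its mean was lowest in part 5 at 4.22 ± 0.12 and higher again in part 7 at 5.38 ± 0.70 (log2, SD, n = 3). Crabp2, a binding protein that hands retinoic acid to its receptors, gave 684, 779 and 828 against 119.7 to 402. Its 3 part 1 arrays were close together, and the gap was 1.08 ± 0.19 (SE; adjusted p = 0.0104). When arrays were left out the calls of Wnt3a, Bmper and Crabp2 were each lost in 4 of 6 fits (limma, adjusted p up to 0.237, 0.161 and 0.346).

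Cell surface and cytoskeletal genes made up another share of the 21. Cdh6, a cadherin, had 50.1, 163 and 89.1 in part 1 and at most 19.4 in the other arrays, a gap of 1.73 ± 0.26 (SE; adjusted p = 0.00372). Igsf21, of the immunoglobulin superfamily, gave 39.4, 111 and 63.6 against a highest of 28.4. The means of parts 2 to 7 spanned only 0.20 log2 units, at weak signals whose differences this scale understates. Myl12b, a myosin regulatory light chain, was the steadiest of them, with 1029, 1072 and 1083 in part 1 and between 529.8 and 699 elsewhere. Its gap was the smallest of the 21 at 0.66 ± 0.10 (SE; adjusted p = 0.00372). Cdc42ep5, an effector of the GTPase Cdc42, had a gap of 1.00 ± 0.18, and Steap1, of a family of metalloreductases, one of 0.94 ± 0.16. In fits that left out arrays the calls of Cdh6, Igsf21, Myl12b, Cdc42ep5 and Steap1 were lost in 2, 5, 3, 4 and 5 of 6.

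Enzymes and genes of other functions completed the group. Uap1l1, which resembles an enzyme of UDP-N-acetylglucosamine synthesis, gave 256, 678 and 240.1 in part 1 and at most 157 elsewhere, with a gap of 1.78 ± 0.31 (SE). Dennd2c, of a family of activators of Rab GTPases, read 67.6, 165 and 45.3 against 17.5 at most (gap 1.71 ± 0.29). Bhmt2, a homocysteine methyltransferase, was the 1 gene of the 21 whose mean in each of parts 2 to 7 was below that of a median probe set (log2 level 4.87), with 16.7, 122 and 79.2 in part 1 and 12.6 at most elsewhere. Its replicate 1 was barely above the other arrays, and the gap of 1.61 ± 0.33 (SE; adjusted p = 0.0380) was 1.08 with an adjusted p of 1 without replicate 2. Defa31 was called too (gap 1.74 ± 0.36), but probes for one alpha-defensin can match others of that multigene family, so its identity is uncertain. The remaining genes were Atf7ip2, with a gap of 0.97 ± 0.20, Abat, which degrades the transmitter GABA (0.96 ± 0.20), Lzts1 (0.92 ± 0.19) and Fbxl14, an F-box protein (0.76 ± 0.15). Other probe sets of Abat, Atf7ip2 and Cdc42ep5 differed by -0.20, 0.15 and 0.11. Calls were lost in 3 of 6 fits that left out arrays for Uap1l1 and Dennd2c, and in 4 for Bhmt2 and Defa31. They were lost in 5 for Abat, Lzts1 and Fbxl14, and in all 6 for Atf7ip2.

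Among the genes lowest in part 1 the largest gap was that of Foxc2, a forkhead factor needed for somite formation. Its signals were 84.9, 19.9 and 81.7 in part 1, and the lowest of the other 18 arrays was 330.0 (median 1502, highest 2399). The groups lay far apart, at 6.14 ± 0.85 in part 1 and 8.72 ± 0.36 in part 2 (log2, SD, n = 3). The gap was -2.58 ± 0.28 (SE; adjusted p = 0.000225) and the difference from the mean of parts 2 to 7 was -4.13 ± 0.21. Its relative Foxc1 gave 217, 69.9 and 131 against 287 at the lowest, a gap of -1.39 ± 0.30 (SE; adjusted p = 0.0491). For Foxc2 the call was kept in all 6 fits that left out arrays, with gaps between -2.96 and -2.09, whereas that of Foxc1 was lost in 4 of them.

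Meis2, Meis1 and Pbx3, homeobox factors that act as partners of Hox proteins, were all among the lowest. Meis2 read 422, 102 and 271 in part 1 and between 1026 and 2226 in the other arrays. The gap of -2.26 ± 0.30 (SE; adjusted p = 0.000898) was followed by nearly level means in parts 2 to 7 (10.20 to 10.97; F test, adjusted p = 0.534). Meis1 gave 77.1, 24.3 and 54.8, below a lowest of 118 elsewhere, with a gap of -1.72 ± 0.29 (SE; adjusted p = 0.00785), and it went on rising to part 5. Pbx3 gave 187, 74.4 and 151 against 238 at the lowest, and its nearest part was part 6 (gap -1.26 ± 0.25, adjusted p = 0.0363). Another probe set of Meis1 differed by only -0.42. In fits that left out arrays the call of Meis2 was lost in 1 of 6, that of Meis1 in 4 and that of Pbx3 in 5.

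Receptors, a ligand and matrix genes were also lowest in part 1. Fzd2, a receptor of Wnt ligands, gave 143, 77.3 and 164 in part 1 and 361 or more elsewhere (gap -1.54 ± 0.19, adjusted p = 0.000898). Cxcl12, a chemokine, had 27.0, 4.33 and 21.7 against a lowest of 59.5 and a median of 685, and its gap was -1.65 ± 0.26 (adjusted p = 0.00485). The means of parts 2 to 7 spanned a further 3.57, the widest range of the 39 genes. Fbn2, a fibrillin of elastic microfibrils, gave 280.4, 160.0 and 370 with a lowest of 705 elsewhere (gap -1.62 ± 0.21, adjusted p = 0.000898). Ptprz1, a receptor tyrosine phosphatase, had a gap of -1.41 ± 0.27, and Chst15, which sulfates chondroitin sulfate, one of -1.31 ± 0.25. Pcsk5, a proprotein convertase, and Smad3, which carries TGF beta signals to the nucleus, had smaller gaps of -0.79 ± 0.17 and -0.62 ± 0.11. Other probe sets of Cxcl12, Pcsk5 and Smad3 differed by as little as -0.24, -0.19 and -0.02. The call of Fzd2 was kept in all 6 fits that left out arrays. Calls were lost in 1 such fit for Fbn2, 2 for Cxcl12, 4 for Ptprz1, and 5 for Chst15, Pcsk5 and Smad3.

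Of the rest, Aff3, a nuclear protein of the AF4 family, read 12.6, 8.17 and 22.0 in part 1 against 48.2 or more elsewhere (gap -1.68 ± 0.24, adjusted p = 0.00184). Pdzrn3, a ubiquitin ligase with PDZ domains, read 392, 129 and 334 against 697 or more (gap -1.72 ± 0.27, adjusted p = 0.00579), with level means in parts 2 to 7 and another probe set at -0.12. Sim1, a helix-loop-helix factor, was the 1 gene of the 18 whose part 1 mean was below that of a median probe set. Its signals were 10.2, 1.63 and 3.04 in part 1 and 17.7 or more in the other arrays, and it went on rising to 8.31 ± 0.21 (log2, SD, n = 3) in part 6. The gap was -1.01 ± 0.21 (SE; adjusted p = 0.0484), and the call was lost in 5 of 6 fits that left out arrays. Zadh2 (-0.95 ± 0.17), Fhl1 (-0.55 ± 0.12), of the LIM domain proteins, and 1110038B12Rik (-0.44 ± 0.09) had gaps under 1 log2 unit. Calls were lost in 2 of 6 fits that left out arrays for Aff3 and Pdzrn3, 4 for Zadh2, 5 for Fhl1 and 6 for 1110038B12Rik.

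**Figure D3:**
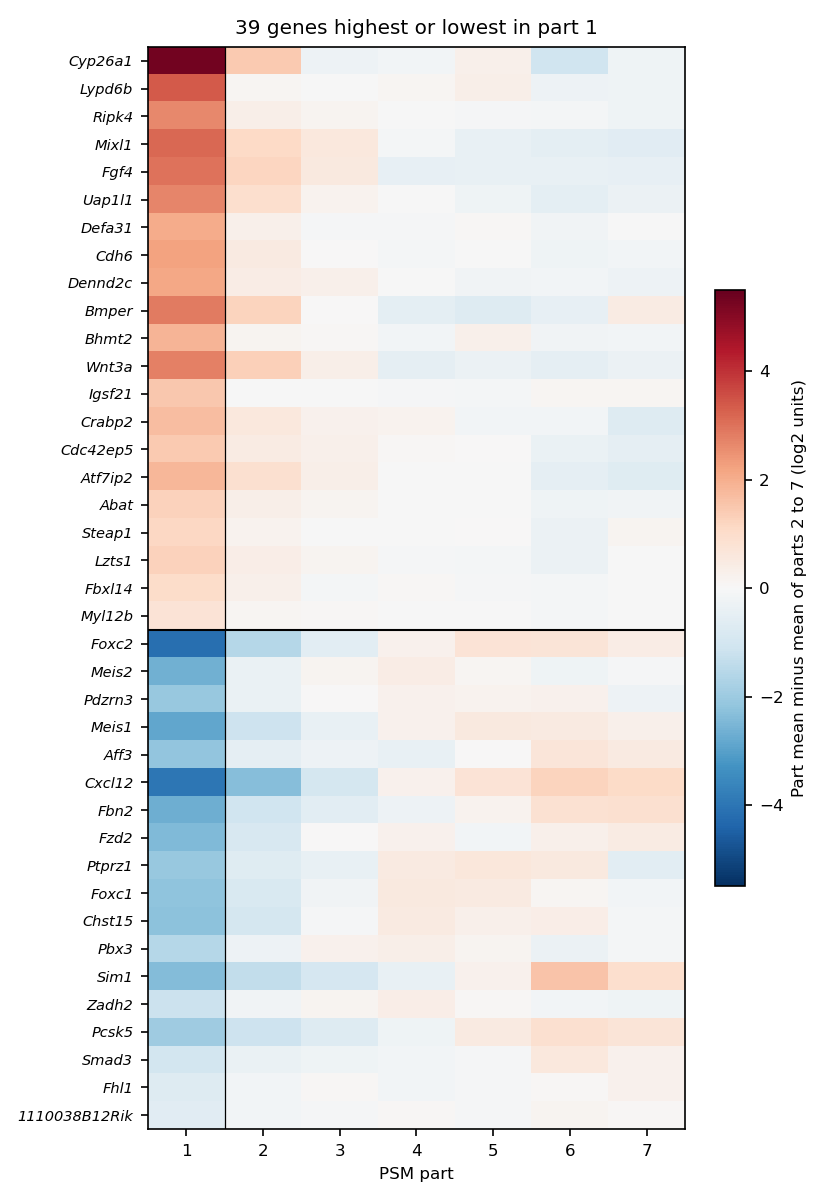
Mean of each part minus the mean of parts 2 to 7 (log2 units, colour scale) for the 21 genes highest in part 1 (above the line) and the 18 lowest (below it), with the PSM part number across. Lypd6b, Ripk4 and Meis2 change at the border of part 1 and are near level after it, the first 2 at weak signals whose differences the scale understates. Mixl1, Fgf4, Wnt3a, Cxcl12 and Sim1 go on changing in the parts that follow.

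The 3 arrays of part 1 were not equally far from the others. Among the 21 highest genes replicate 1 was the nearest to the other parts for 17 and replicate 2 the farthest for 15, with median distances from the mean of parts 2 to 7 of 1.48, 2.92 and 2.15 log2 units in replicates 1, 2 and 3. Among the 18 lowest, replicate 1 was the nearest for 12 and replicate 2 the farthest for 15 (medians -1.76, -2.69 and -2.18). Without part 1 replicate 1 the test called 75 genes highest and 24 lowest, of which 20 and 17 were among the 21 and 18. Without part 1 replicate 2 it called 5 and 7, and without part 1 replicate 3 it called 7 and 9. Calls in all 3 of these fits were kept by Cdh6, Dennd2c, Fgf4 and Myl12b among the highest and by Aff3, Cxcl12, Fbn2, Foxc2, Fzd2, Meis2 and Pdzrn3 among the lowest. Leaving out a replicate number in every part gave 25, 1 and 0 highest and 8, 5 and 4 lowest for replicates 1, 2 and 3 (limma). Of these only 9, 1 and 0 were among the 21, and 7, 4 and 4 among the 18. In the fit without replicate 3, 265 genes were highest with an unadjusted p under 0.05, the 21 among them, against 289 with all arrays. The 21 were picked with these same arrays, so this is no separate support for their calls. Fits without a replicate number had 7 residual degrees of freedom, against 14 with all arrays. Foxc2 and Fzd2 were called in all 6 fits.

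**Figure D4:**
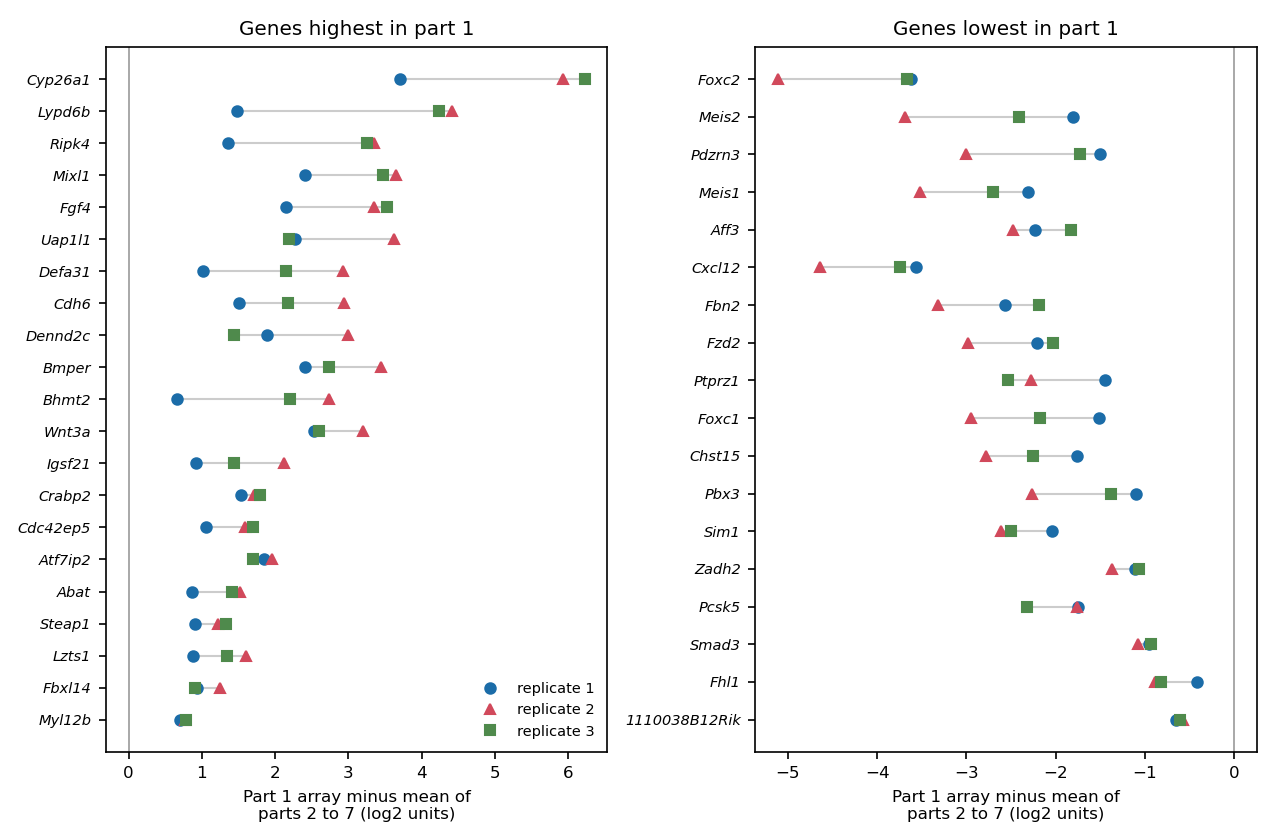
Each part 1 array minus the mean of parts 2 to 7 (log2 units) for the 21 genes highest (left) and the 18 lowest (right) in part 1, where symbols mark the replicate and the vertical line is at 0. Replicate 1 (circles) is the nearest to 0 for 17 of the 21 and 12 of the 18 genes.

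Genes of tailbud progenitors were the list with the largest share of members higher in part 1. Of 25 measured, 19 were higher, 1 was lower and 5 did not pass, with a median difference of 1.65 log2 units against 0.01 over all genes, of which 7.32% were higher and 4.98% lower. Between 18 and 19 stayed higher when arrays were left out. Cdx2, a caudal homeobox gene that keeps the body axis growing, gave 337, 593 and 588 in part 1 and at most 157 elsewhere (difference 3.42 ± 0.31, SE). Cdx4, its relative, gave 475, 733 and 699 against a highest of 362 (3.24 ± 0.31). Evx1, a homeobox gene of the primitive streak, gave 232, 567 and 459 against a highest of 175 (3.22 ± 0.30), and Evx1os, its opposite-strand transcript, differed by 3.51 ± 0.29. For these 4 the part 1 arrays lay above all others, but none passed the threshold of the test against each other part. Nkx1-2, a homeobox gene of axial progenitors, ranged from 93.4 through 304 to 888 within part 1 and overlapped 1 array at 192, replicate 2 of part 5. The member that was lower was Cdx1, with 15.04, 24.0 and 0.94 against a median of 34.3 (difference -0.86 ± 0.27, adjusted p = 0.0429), and that call was lost in 4 of 6 fits that left out arrays, with an adjusted p of 0.342 without part 1 replicate 3.

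The list of posterior PSM genes was mixed. Of 15 genes 6 were higher and 1 was lower (7.32% and 4.98% over all genes). When arrays were left out 4 to 7 were higher and 1 was lower. The calls of Msgn1 and Hes7, both among the 6, were each lost in 4 of 6 such fits (limma, adjusted p up to 0.278 and 0.135). Dkk1, an inhibitor of Wnt signalling, read 548.5, 449 and 157 in part 1 with a median of 10.5 elsewhere, and its highest other array, at 337, overlapped them (difference 3.16 ± 0.30). Rspo3, which strengthens Wnt signals, gave 2840, 3239 and 2542 against a median of 701 (2.38 ± 0.19), with part 2 close behind. Tbx6 differed by 1.17 ± 0.19, but its mean was 9.10 in part 1 and 9.63 in part 2, so its peak lay elsewhere. Pcdh8, a protocadherin of the PSM that marks segment formation, gave 641, 15.8 and 619 in part 1 and between 354 and 6178 in the other arrays (-3.68 ± 0.64, adjusted p = 0.000536). Replicate 2 alone lay below every other array, and with replicate 2 left out in every part the difference was -2.09.

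Genes of segment boundaries and of somites were lower in part 1. Over all genes 7.32% were higher and 4.98% lower. Of 11 segment boundary genes 8 were lower and 0 higher (median difference -2.14). When arrays were left out 6 to 10 were lower, with the call of Mesp2 lost in 5 fits and that of Tbx18 in 2. Of 13 somite genes 11 were lower and 0 higher (median -2.16), and 9 to 11 were lower when arrays were left out. The call of Pax3 was lost in 4 of 6 such fits (adjusted p up to 0.462, limma) and that of Twist1 in 1. Meox1, a homeobox gene of somites, gave 14.7, 15.1 and 46.7 in part 1 against a median of 2193, the largest downward difference of all genes (-4.59 ± 0.29), though the lowest other array, at 15.97, overlapped it. Aldh1a2, which synthesises retinoic acid in paraxial mesoderm, gave 26.5, 6.44 and 25.8 in part 1 and 49.2 or more elsewhere (-4.16 ± 0.23). Met, the receptor of hepatocyte growth factor, differed by -3.81 ± 0.28 and Eya1, a transcriptional cofactor, by -2.97 ± 0.43, both with overlapping arrays. Uncx, which marks the caudal side of somites, was at the floor in all part 1 arrays (0.63, 0.63 and 0.76) and in part 2 as well. It was near the floor in part 3 too (6.9, 0.3 and 0.4), so its absence was not particular to part 1. A part 1 mean below that of a median probe set was found for 6 segment boundary genes (Mesp2, Ripply2, Cer1, Dmrt2, Tbx18 and Uncx). Ripply2 was also weak in parts 2 and 3, with signals between 2.4 and 15.8.

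Retinoic acid genes stood on both sides, beside 7.32% higher and 4.98% lower over all genes tested. Of 12 measured, 3 were higher and 6 lower in part 1 (median difference -0.42; 3 higher and 3 to 4 lower when arrays were left out). The higher ones were Cyp26a1, Crabp2 and the receptor Rarg, which gave 151, 228 and 255.5 against a highest of 163 that overlapped them (1.32 ± 0.16). The lower ones were the synthetic enzyme Aldh1a2, the targets and Hox partners Meis1 and Meis2, the binding protein Crabp1 and the receptors Rarb and Rxra, of which the last 3 differed by less than 1 log2 unit. Their calls were lost in 4, 6 and 5 of 6 fits that left out arrays (adjusted p up to 0.486, 0.311 and 0.238). Cyp26b1, Aldh1a1 and Aldh1a3 were below the filter on weak signals, as were Rara and Rxrg.

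Several FGF and Wnt genes were higher in part 1. Of 18 FGF pathway genes 10 were higher and 2 lower (7.32% and 4.98% of all genes; median difference 1.00; 5 to 10 higher when arrays were left out, the fewest without replicate 2). The ligands Fgf17 (113, 521 and 231 in part 1, at most 166 elsewhere), Fgf15 (272.5, 429 and 337, at most 236) and Fgf3 (381, 544 and 322, at most 399) differed by 3.25 ± 0.39, 2.38 ± 0.18 and 2.29 ± 0.31, and only Fgf15 of these had part 1 arrays above all others. Fgf8, the ligand best known for its gradient in the PSM, was weak on this array at 19.3, 57.4 and 82.9 (1.42 ± 0.22). The receptor Fgfr1 and the inhibitor Shisa3 were the lower members, at -0.94 ± 0.27 and -1.73 ± 0.30. The call of Shisa3 was lost without replicate 2 (adjusted p = 0.0520), and that of Fgfr1 in 4 of 6 fits that left out arrays, namely without replicate 1 or 2 and without part 1 replicate 1 or 3 (adjusted p up to 0.255). Of 25 Wnt pathway genes 9 were higher and 1, the inhibitor Wif1, was lower, with a median of 0.11. When arrays were left out 6 to 8 were higher, the fewest without part 1 replicate 2, and 0 to 1 lower. The call of Wif1 (-0.65 ± 0.18) was lost in all 6 of those fits (adjusted p up to 0.124), and those of Apcdd1 and Notum, both Wnt inhibitors, in 5 of 6 (up to 0.274 and 0.240). Wnt5b gave 312, 1039 and 524 against 306 at the highest (2.29 ± 0.32) and Wnt5a 1405, 1637 and 1228 against 1018 (1.74 ± 0.23), each above all other arrays. With each array centred on its median the Wnt counts were 7 higher and 3 lower.

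Of 14 Notch and clock genes 5 were lower, 1, Hes7, was higher and 8 did not pass (median difference -0.18, against 4.98% lower and 7.32% higher over all genes). When arrays were left out 4 to 5 were lower and 0 to 2 higher, with 0 higher without part 1 replicate 2 or 3. The call of Hes7 (1.29 ± 0.34) was lost in 4 of 6 fits that left out arrays, with a highest adjusted p of 0.135 without part 1 replicate 3. The receptor Notch1 gave 552, 394 and 1012 in part 1 and 1151 or more elsewhere (-1.78 ± 0.26), and Notch2 gave 399.7, 538 and 551.5 against 602 or more (adjusted p = 0.000134). Hey1 (-1.66 ± 0.28) and Heyl (-1.35 ± 0.20), repressors that Notch turns on, were lower with overlapping arrays. The ligand Dll1 (0.90 ± 0.34, adjusted p = 0.0961) did not pass.

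Hox genes were counted by paralogue group, with no test of a difference between the groups. Of 10 genes of groups 9 to 13, 7 were higher and 0 lower (7.32% and 4.98% over all genes), with a median difference of 1.26, but only 2 to 6 stayed higher when arrays were left out, the fewest without replicate 1. Hoxd13, the last gene of its cluster, gave 1671, 949 and 857 in part 1 with a median of 108 elsewhere (3.13 ± 0.43), yet its part 2 mean of 10.23 was no lower than that of part 1, 10.14. Hoxc10 gave 1015, 1060 and 959.9 against a highest of 939.8 (1.45 ± 0.17). Of 10 genes of groups 1 to 4, 3 were higher and 1 lower (median 0.33), and of 8 genes of groups 5 to 8 the counts were also 3 and 1 (median 0.26), with 0 to 3 higher in either group when arrays were left out, and 0 in both without replicate 2. No Hox gene was highest or lowest in part 1 by the test against each other part.

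Lists of housekeeping and structural genes had median differences of 0.18 or less. Of 22 cell cycle genes 2 were higher and 1 was lower, shares about those of all genes (7.32% and 4.98%), by differences between -0.23 and 0.33 log2 units over the list. When arrays were left out 0 to 3 of them were higher and 0 to 1 lower. Of 19 glycolysis genes 5 were higher and 1 lower (median 0.18), and 1 to 3 stayed higher when arrays were left out. Slc2a3, a glucose transporter, stood out with 1425, 3649 and 4331 in part 1 and at most 1326 elsewhere (2.37 ± 0.31), although another of its probe sets differed by 0.08. Of 27 adhesion and matrix genes 5 were higher and 5 lower, with 2 higher without part 1 replicate 2 and 3 lower without replicate 1. Col1a2, a collagen chain, gave 405, 529 and 342 against a highest of 283 (2.19 ± 0.20). Col4a2 and Col4a1, basement membrane collagens, differed by -1.10 ± 0.20 and -1.14 ± 0.23. The call of Col4a1 was lost without replicate 1 and without part 1 replicate 2 (limma, adjusted p up to 0.0914). BMP and TGF beta genes numbered 4 higher and 2 lower of 18, but 1 to 3 higher and 1 to 2 lower when arrays were left out, with 1 of each without replicate 2. Fst, a secreted inhibitor of activin, was at 15.6, 16.2 and 18.6 in part 1 and 38.0 or more elsewhere (-2.16 ± 0.31).

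Calls in the marker lists of other tissues changed in several cases when arrays were left out. Over all genes tested 7.32% were higher in part 1 and 4.98% lower. The 1 of 15 endothelial genes and the 1 each way of 13 stress genes are about those shares. Of 12 blood genes 2 were higher in part 1 (Lmo2 and Epor), but 7 without part 1 replicate 2, 3 without replicate 2 in every part and 0 without replicate 1. The mean level was 9.15, 7.44 and 7.86 in the 3 arrays against 6.59 to 8.48, so replicate 1 held the most blood signal of all 21 arrays, with Hba-x, an embryonic globin, at 3627, 415 and 1257. Among 15 endothelial genes 1 (Etv2) was higher, with means of 5.66, 4.60 and 6.31 against 4.51 to 6.90. Of 11 neuroectoderm genes, Fabp7 was higher, at 1111, 1166 and 668 against a highest of 971 (1.84 ± 0.37, lost without replicate 1 at an adjusted p of 0.101), and Irx3 and Ncam1 were lower, while Sox1, Zic1 and Neurog2 were below the filter. Of 8 lateral and intermediate mesoderm genes 2 were lower (Osr1 and Lhx1), but only 0 to 1 when arrays were left out. The call of Lhx1 was lost in all 6 of those fits and that of Osr1 in 3 (adjusted p up to 0.143 and 0.0993, both without replicate 1). Of 2 notochord genes Krt19 was higher. The lists of 5 germ cell, 4 neural crest and 13 stress genes had 1 higher (Ifitm3), 1 lower (Sox9), and 1 higher and 1 lower (Ier3 and Jun). When arrays were left out the call of Jun was lost in all 6 fits (adjusted p up to 0.223), those of Ifitm3 and Irx3 in 4 (up to 0.349 and 0.240), those of Etv2 and Krt19 in 3 (up to 0.149 and 0.237), that of Ncam1 in 2 (up to 0.123) and that of Ier3 in 1 (0.0515). The part of other tissues in the calls was not tested.

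**Figure D5:**
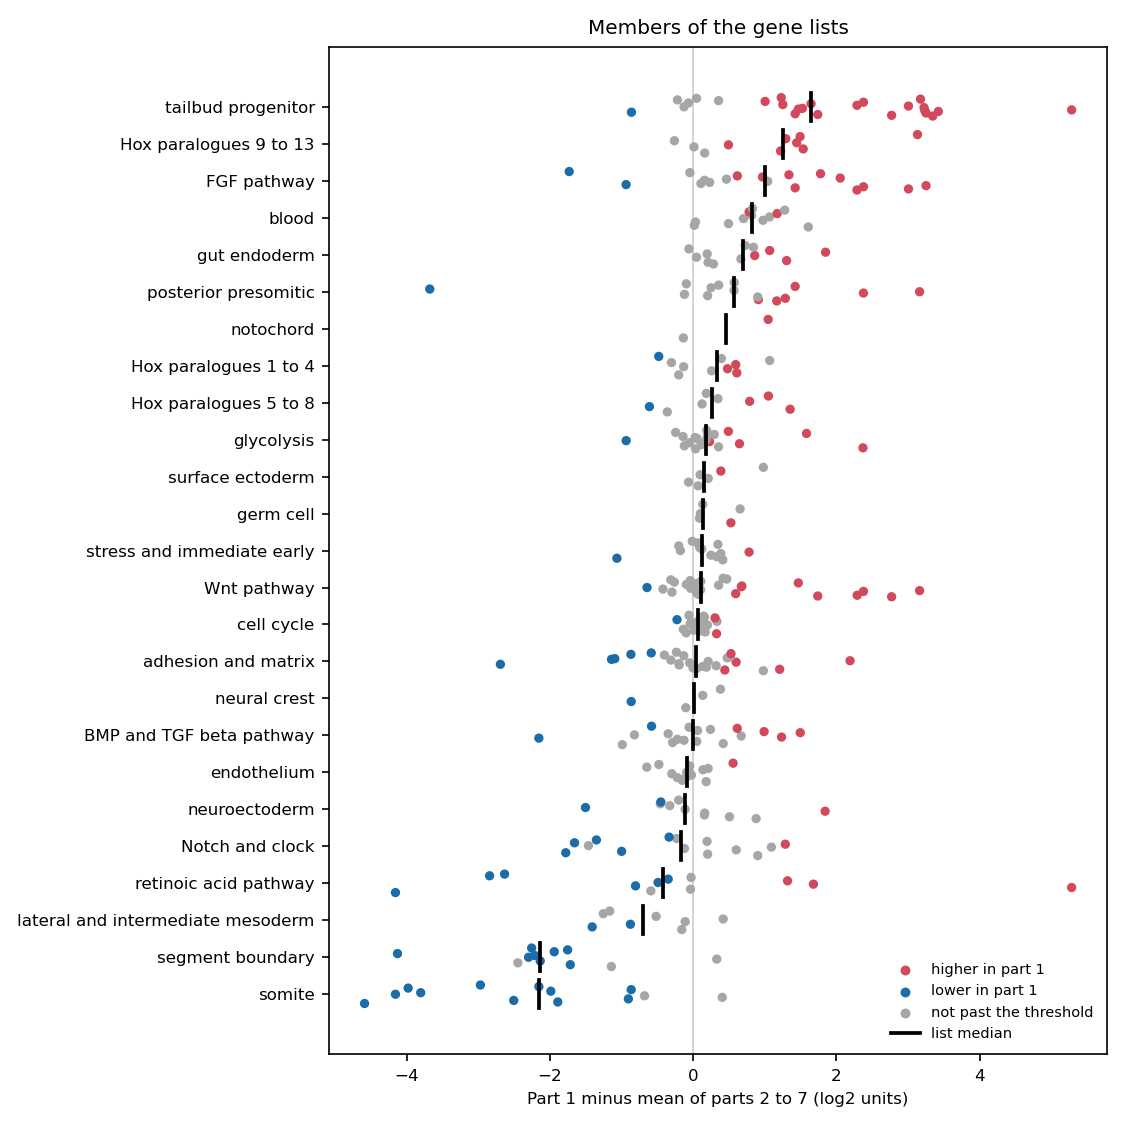
Difference between part 1 and the mean of parts 2 to 7 (log2 units) for each measured member of the 25 gene lists, ordered by list median (vertical bars), with red for genes higher in part 1, blue for genes lower and grey for those past no threshold. The tailbud progenitor list has its median at 1.65 and the somite list at -2.16.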

How the data were processed

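The 21 arrays measured RNA of 7 PSM parts, 3 arrays each, grouped by title. The authors deposited 1 linear intensity for every probe set and array, computed with MAS5 according to the submitters' processing notes (version not given in the sources used here), which makes array means alike. Of 45101 probe sets 64 were controls, 932 had several gene symbols, 9160 had none and 34945 had 1, of which 34741 matched the RefSeq table of GRCm38.p6 by gene ID. Each of 18193 genes was read from its brightest probe set on average, and 12141 that reached 13.3, the median of the table, in at least 3 arrays were tested as log2(signal + 16). Probe sets without a single symbol were not used here.

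Limma 3.58.1 (R 4.3.3) fitted 7 part means with a variance trend and 14 residual degrees of freedom. The contrasts were part 1 minus the mean of the 6 other part means, part 1 minus each other part (a gene being highest or lowest if all 6 differences had that sign, with the largest two-sided p), and a moderated F test over parts 2 to 7. P-values were adjusted by Benjamini-Hochberg over all genes, with a threshold of 0.05. A gene counted as low where its mean was below log2(13.3 + 16). Errors are the SE of the fit or the SD of 3 arrays, whose number limits the precision. The scripts were tested on simulated data.

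The genes, the 25 lists and the comparison itself were chosen with earlier results of these data known. The rule for named genes takes the 12 largest differences each way with one sign in all replicate numbers, the 10 largest gaps each way, up to 10 genes at low signal, up to 4 members of each list by size of difference, and any gene that makes up a count of 5 or fewer; not all of them are named, and further members of the 39 and of the lists were named after their values were seen. Other settings tried were median centring, quantile normalization, a pseudocount of 1 or 64, a filter at the 75th percentile or none, averaging all probe sets of a gene, array weights, no variance trend, a block for the replicate number (fixed or random), 2 pooled groups, part 2 left out of the contrast, 2 times the median as the low limit, and replicates left out.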

Additional observations from a re-analysis of the deposited data

How the results depend on the processing

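Among the 159 named genes with a called difference and the 39 gaps, for which each alternative was computed gene by gene, none turned its direction; for the other called genes only counts were compared. The 889 genes higher in part 1 became 559 with the filter at the 75th percentile, 531 with 2 pooled groups and 290 to 851 without a replicate; the 605 lower became 1113 with median centring, 346 with 2 pooled groups and 221 to 566. The 21 highest became 4 with a pseudocount of 1, 53 with 64, 10 with the filter at the 75th percentile, 40 with array weights and 0 to 75 without a replicate; the 18 lowest became 10 with the mean of probe sets and 4 to 24 without a replicate. The 1 gene at low signal in parts 2 to 7 became 0 with a pseudocount of 1 or the stricter filter, 2 with a pseudocount of 64, median centring or the mean of probe sets, 4 with array weights, 5 with no filter, 8 with 2 times the median as limit and 0 to 11 without a replicate. Bhmt2 was not among the genes found with median centring, with the mean of probe sets or without part 1 replicate 2. The 1 at low signal in part 1 became 0 with a pseudocount of 64, no filter or the stricter filter, 2 with median centring or array weights, 3 with a pseudocount of 1, 4 with 2 times the median and 0 to 2 without a replicate. With quantile normalization or the mean of probe sets it was a gene other than Sim1. The same held without replicate 1 or 3 in every part and without part 1 replicate 3. The F test over parts 2 to 7 called 1033 genes, and 349 to 874 without a replicate.

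With the replicate number as a fixed block the counts were 1486 higher, 1129 lower, 90 highest and 56 lowest, 13 and 3 at low signal, and 1910 by the F test; as a random block (correlation 0.242) they were 1372, 1002, 72 and 35, and 4 at low signal in parts 2 to 7. Both kept all of the 889, 605, 21 and 18. Either block gave 4 blood genes higher, 3 Notch and clock genes higher with 5 lower, and 5 lateral and intermediate mesoderm genes lower. Same-numbered arrays deviated together in 55 of 63 pairs at a correlation over 0.1 (0.0341 to 0.677), against -0.511 to 0.393 in 126 pairs of different numbers. Deviations within a part cancel out, so positive values for same numbers bring negative values for different numbers. For 18 of 21 arrays the mean correlation with arrays of other parts was highest for their own number. As not every pair passed 0.1 and no label says what a number shares, this is a hint from the data only.

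Of 159 named genes called against the mean of parts 2 to 7, 92 kept the call in every alternative run and 42 lost it only where arrays were left out; for the gaps of the 39 genes, 447 values kept the call and 206 lost it. The cause of these changes was not tested. MAS5 values are noisy at low signal, and detection calls were not used here.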
